A study of Capra hircus with 4 samples.

Results

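The circadian clock genes of goat longissimus muscle are described here: CLOCK, ARNTL, PER1, PER2, PER3, CRY1, CRY2, NR1D1, NR1D2 and DBP. The members were the unigenes, which are sequences assembled from the reads, that the authors' table pairs with 1 of these goat gene names. All 10 genes were in the table, with 22 unigenes out of 21195 paired with a named goat gene, and they are 10 of 11208 such genes in the series. The rule uses gene names and no measured value.

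RNA-seq was performed on 4 libraries from the longissimus muscle of Cashmere goats, whose age is given as 2 months. The control library carries no treatment label and no dose. It is listed with the same 28 dosing days and 21 withdrawal days as the treated libraries. The 3 treated libraries, called T1, T2 and T3 after their numbers in the labels, came from goats that received ractopamine, a β2-adrenergic receptor agonist, by mouth in the mornings. The dose was 1 mg/kg, on 28 dosing days followed by 21 withdrawal days. The study sequenced several days of this schedule, but the labels give no day for a library, and neither the time of day at sampling nor any pooling of animals for sequencing is given in the sources used here, so treatment, day, hour and animal cannot be told apart. The study sacrificed male goats, and its comparisons of the RNA-seq libraries were made to find transcripts that mark the use of β2-agonists.

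The libraries held between 6675218 and 8533046 counts, but the counts on named goat genes were 6086312 in the control library, 3991046 in T1, 133809 in T2 and 2697657 in T3. The gap lay mainly in 25 unigenes paired with goat proteins that carry no gene name and are mitochondrial, which took 23.8% of the goat-paired counts in the control and 42.8%, 97.9% and 55.2% in T1, T2 and T3. These unigenes were left out of the totals. Levels are therefore counts per 1000000 counts on named goat genes (CPM). A floor of 3 counts corresponds to 0.493 CPM in the control library, 0.752 in T1, 22.4 in T2 and 1.11 in T3. T2 stood apart, with 9 of the 10 clock genes at 3 counts or fewer, so every result on it is given under its own name. The sum of skeletal muscle markers was high in all libraries, at 104668, 102938, 111995 and 159294 CPM in the control and T1 to T3. It covers the 8 of 12 markers in the table, with CKM and DES among them. Single markers did not move together. ACTA1 held 130, 6, 0 and 3 counts in the control and T1 to T3. In the same order, MYH2 was at 374, 61.4, 209 and 300 CPM and PYGM at 15759, 7332, 3961 and 11207. TNNT3 went the other way, at 10520, 28302, 21067 and 32959 CPM.

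The mammalian clock is a loop of transcription and translation that runs in almost every cell. CLOCK and ARNTL (also called BMAL1) bind E-box elements as a pair and switch on the period (PER) and cryptochrome (CRY) genes, whose proteins return to the nucleus and inhibit that pair. The same E-box drive acts on NR1D1 and NR1D2 (REV-ERBα and REV-ERBβ), nuclear receptors that repress ARNTL, and on DBP, a transcription factor that passes the rhythm on to D-box genes. In skeletal muscle the clock is known for the daily rhythm of genes of glucose and fat use. PER1 is also known to respond to cAMP and to glucocorticoids.

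CRY1 and CRY2, and likewise NR1D1 and NR1D2, are close relatives, so it was checked whether their reads could be mixed. The stretches around the longest run of bases that each pair shares are shown from the assembled unigenes, on the coding strand and inside the predicted coding sequence, with capitals for the bases that differ between the relatives at the same place. Over the 59 bases shown, CRY1 and CRY2 differ at 16, and over the 80 bases shown, NR1D1 and NR1D2 differ at 28. Positions are 28 to 86 of unigene c8956_g1, 90 to 148 of c9264_g1, 1252 to 1331 of c5964_g1 and 610 to 689 of c10932_g1.
CRY1: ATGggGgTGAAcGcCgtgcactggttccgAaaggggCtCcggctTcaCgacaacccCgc
CRY2: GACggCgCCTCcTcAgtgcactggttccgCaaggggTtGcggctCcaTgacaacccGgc
NR1D1: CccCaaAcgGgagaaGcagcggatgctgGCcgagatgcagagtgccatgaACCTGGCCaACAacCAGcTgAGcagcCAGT
NR1D2: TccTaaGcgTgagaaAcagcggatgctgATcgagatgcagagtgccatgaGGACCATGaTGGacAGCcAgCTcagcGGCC

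The longest identical run was 14 bases between CRY1 and CRY2 and 20 bases between NR1D1 and NR1D2, and none of 12 bases or more was found between the PER1 unigene and 5 of the 6 PER2 unigenes. The remaining PER2 unigene, c7_g1, shared 12 bases with it. No longer run was shared in these unigenes on the same strand.

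In the control library, CRY2 was the most abundant clock gene per length, at 58.1 CPM per kb of unigene, followed by PER1 at 30.5 and NR1D1 at 24.0. NR1D2 stood at 9.79, DBP at 8.54, CRY1 at 5.64, ARNTL at 3.38, CLOCK at 1.85, PER2 at 0.833 and PER3 at 0.809 on the same scale. The 95% counting intervals of the neighbours NR1D2 and DBP, DBP and CRY1, ARNTL and CLOCK, and PER2 and PER3 overlapped, so these pairs were not ordered. In T1 and T3 PER1 was first, at 110 and 37.4 CPM per kb, ahead of CRY2 at 16.6 and 27.0. These intervals, and all others given here, cover counting error only, as each library was sequenced without replicate, and in bulk muscle fewer cells of a type and less RNA per cell cannot be told apart.

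**Figure D1:**
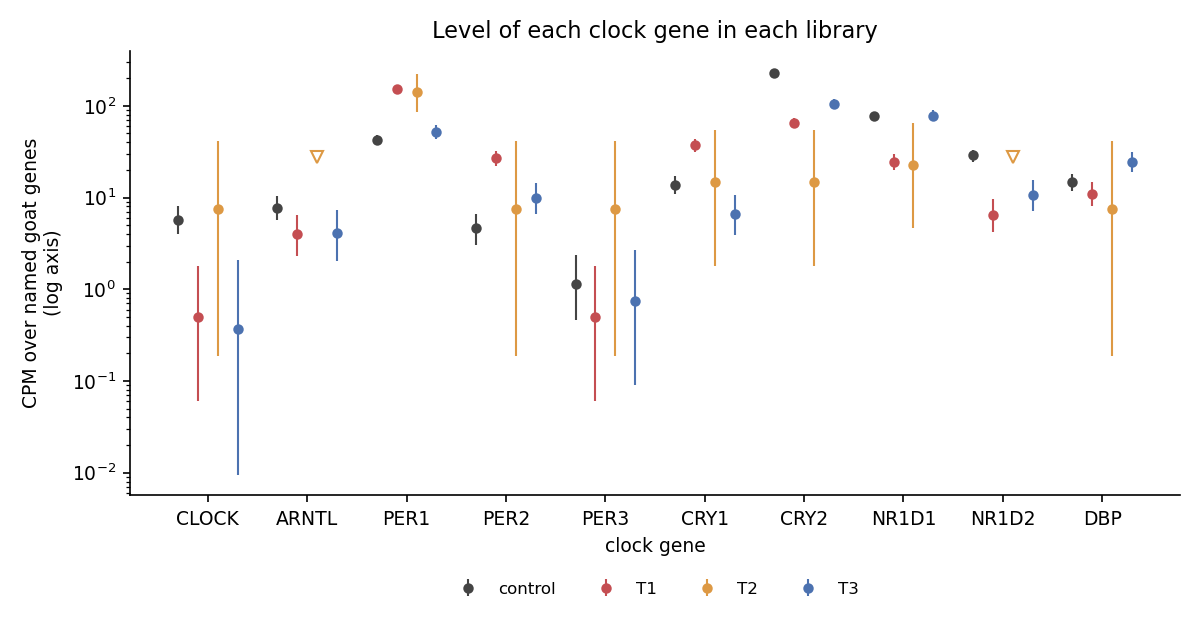
Level of the 10 clock genes in the 4 libraries, in CPM over named goat genes on a log axis, with 95% exact intervals, and open triangles at the upper limit where a library held 0 counts. PER1 lay at 153 and 142 in T1 and T2 against 42.4 in the control library, while CRY2 fell from 228 in the control library to between 14.9 and 106 in the treated libraries.

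T1, T2 and T3 were each set against the control library by the x-fold, which is the level in the treated library over that in the control library. A gene was called higher above an x-fold of 3 or lower below 0.6, the limits of the study, when the exact binomial test of its counts, Benjamini-Hochberg adjusted over all goat genes tested, was below 0.01. This test compares libraries and not conditions. In T1, PER1 and PER2 were called higher, where 4.72% of 9469 genes were, and CRY2, CLOCK, NR1D1 and NR1D2 were called lower, where 28.2% were. In T2, PER1 was called higher against 4.56% of 9457 genes, and CRY2 lower against 5.52%. In T3 no clock gene was called higher, where 1.94% of 9463 genes were, and CRY2, CLOCK and NR1D2 were called lower, where 24.3% were. The 4 and 3 lower calls among 10 clock genes are to be read against these high backgrounds. The median x-fold of all genes tested was 0.737, 0.551 and 0.712 in T1, T2 and T3.

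**Figure D2:**
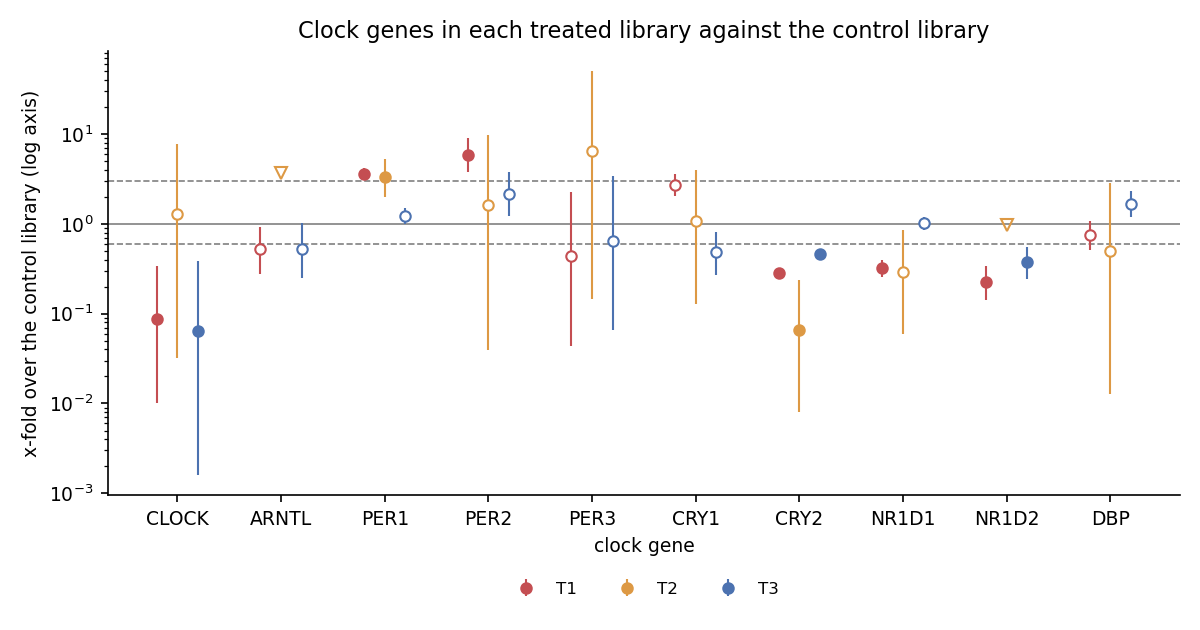
The x-fold of each clock gene over the control library on a log axis, with 95% exact intervals, filled points for called genes, open points for others, dashed lines at the limits 3 and 0.6, and triangles at the upper limit where the treated library held 0 counts. PER1 and PER2 lay above the upper limit in T1, at 3.61 and 5.83, and CRY2 lay below the lower limit in all 3 treated libraries.

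CLOCK, the activator with histone acetyltransferase activity, had 1 or 2 counts in each treated library. It held 35 counts in the control library, 2 in T1, 1 in T2 and 1 in T3. Its level was 5.75 CPM in the control library against 0.501 and 0.371 in T1 and T3, so that the x-fold was 0.0871 (95% interval 0.0102 to 0.339) and 0.0645 (0.00159 to 0.384). Both were called lower (adjusted exact binomial p = 1.53e-05 and 0.000227). In T2, 1 count gives 7.47 CPM and an x-fold with an interval from 0.0320 to 7.73, so no difference was detectable at this depth. When only the CLOCK unigene with a stop codon was counted, 15 counts in the control library stood against 1 and 0 in T1 and T3, and neither call was kept (adjusted exact binomial p = 0.0120 and 0.0164). The 9 unigenes that match CLOCK only by nucleotide, and are not paired with it in the authors' table, held 71, 31, 1 and 9 counts in the control and T1 to T3. With these added, CLOCK held 106 counts in the control library against 33 and 10 in T1 and T3, and the x-folds moved to 0.475 (0.311 to 0.708) and 0.213 (0.0992 to 0.407), both still called lower (adjusted exact binomial p = 0.000303 and 1.12e-07).

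ARNTL, the partner of CLOCK, held 47 counts in the control library, 16 in T1, 0 in T2 and 11 in T3. The level was 7.72 CPM in the control and 4.01 and 4.08 in T1 and T3, which lie close together and below it. The x-folds of 0.519 (0.275 to 0.932) and 0.528 (0.247 to 1.03) were not called (adjusted exact binomial p = 0.0448 and 0.115). With the mitochondrial pairs kept in the totals both became called, at 0.390 and 0.311, where 43.3% and 56.5% of all genes were lower. Both were also called with all expected counts and with FPKM. With the unigenes matched only by nucleotide added, the x-folds were 0.685 and 0.737 in T1 and T3. With median-ratio size factors they were 0.633 and 0.680. Neither of these alternatives gave a call. In T2, the control level of ARNTL was below the floor of 22.4 CPM and no fold can be given.

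Among the period genes, PER1 was higher in T1 and T2, PER2 was higher in T1, and PER3 was barely detected. PER1 held 258 counts in the control and 611, 19 and 140 in T1, T2 and T3. Its levels were 42.4 CPM in the control library, 153 in T1, 142 in T2 and 51.9 in T3, so T1 and T2 lay close together, with a ratio of 1.08 (0.684 to 1.80), and T3 was close to the control library. The x-fold was 3.61 (3.12 to 4.19) in T1 and 3.35 (1.98 to 5.34) in T2, both called higher (adjusted exact binomial p = 3.48e-73 and 0.000298). In T3 it was 1.22 (0.989 to 1.51) and was not called (adjusted exact binomial p = 0.113). Both calls depend on the total used. With the mitochondrial pairs kept in the totals, the x-fold of PER1 was 2.71 in T1, so that its call was lost, and turned to 0.0930 in T2. The call in T1 was also lost with all expected counts as totals, at 2.54, and with FPKM, at 2.52. With median-ratio size factors PER1 was at 2.60 in T2 and was not called.

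PER2, the period protein closest to PER1 in its role as a repressor, held 28 counts in the control and 107, 1 and 27 in T1, T2 and T3. This gave 4.60 CPM in the control library, 26.8 in T1, 7.47 in T2 and 10.01 in T3. T1 was the highest, with an x-fold of 5.83 (3.81 to 9.18, adjusted exact binomial p = 9.26e-20). The x-fold of 2.18 (1.23 to 3.83) in T3 did not pass the test (adjusted exact binomial p = 0.0158), and 1 count in T2 allows no statement. The count is spread over 6 unigenes, of which c14668_g1 held 16, 44, 1 and 14 counts and c30993_g1 held 5, 44, 0 and 9. Both were higher in T1, by x-folds of 4.19 (2.32 to 7.96) and 13.4 (5.34 to 43.4). PER3 held 7 counts in the control and 2, 1 and 2 in the treated libraries, which allows no statement on its direction.

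The cryptochromes went apart. CRY2 was lower in every treated library, while CRY1 was at its highest in T1 and at its lowest in T3. CRY2, which inhibits the CLOCK and ARNTL pair, held 1385 counts in the control and 259, 2 and 285 in T1, T2 and T3. The levels were 228, 64.9, 14.9 and 106 CPM, and no interval of a treated library reached that of the control library. The x-fold was 0.285 (0.249 to 0.326) in T1, 0.0657 (0.00795 to 0.238) in T2 and 0.464 (0.407 to 0.528) in T3, and all 3 were called lower (adjusted exact binomial p = 7.22e-97, 1.86e-09 and 8.09e-36). These calls were kept under all alternatives run for them.

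CRY1, the cryptochrome whose transcript peaks late in the daily cycle, held 84 counts in the control and 148, 2 and 18 in T1, T2 and T3. The levels were 13.8 CPM in the control library, 37.1 in T1, 14.9 in T2 and 6.67 in T3. The x-fold of 2.69 (2.04 to 3.56) in T1 had a small p (adjusted exact binomial p = 1.03e-12) but was below the limit of 3, so it was not called, and limits of 2 and 0.5 called it. In T3 the x-fold was 0.483 (0.273 to 0.811), just above the p threshold (adjusted exact binomial p = 0.0103). It was called lower, at 0.468, when only unigenes with a stop codon were counted. The counts of CRY1 were the same there, and only the totals and the genes tested differed. CRY1 overlaps the uncharacterized gene LOC102173642 in the goat annotation of RefSeq, build ARS1.2, so reads of that locus could be shared.

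The nuclear receptor genes NR1D1 and NR1D2, which repress ARNTL, were both lower in T1 and differed in T3. NR1D1 held 466 counts in the control and 98, 3 and 210 in T1, T2 and T3. Its levels were 76.6, 24.6, 22.4 and 77.8 CPM, so T3 was at the level of the control library. The x-fold was 0.321 (0.255 to 0.400) in T1, called lower (adjusted exact binomial p = 6.15e-29), 0.293 (0.0602 to 0.861) in T2, not called (adjusted exact binomial p = 0.103), and 1.02 (0.860 to 1.20) in T3. With the mitochondrial pairs kept in the totals, NR1D1 in T3 was called lower at 0.598.

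NR1D2 held 175 counts in the control and 26, 0 and 29 in T1, T2 and T3. The levels were 28.8 CPM in the control and 6.51 and 10.8 in T1 and T3, both far below it. The x-folds of 0.227 (0.144 to 0.343) and 0.374 (0.243 to 0.556) were called lower (adjusted exact binomial p = 9.90e-16 and 3.98e-07). In T2, NR1D2 held 0 counts, with an interval of the x-fold from 0 to 0.969, and was not called (adjusted exact binomial p = 0.207). Its control level was 1.28 times the floor of 3 counts in T2, which sets no minimum for the fold. Both calls ended when the unigene that matches NR1D2 only by nucleotide was added, as described with the single unigenes.

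DBP, the direct output of the E-box drive, held 90 counts in the control and 44, 1 and 66 in T1, T2 and T3. The levels were 14.8, 11.02, 7.47 and 24.5 CPM. T3 was the highest, with an x-fold of 1.65 (1.19 to 2.30, adjusted exact binomial p = 0.00764), which is below the limit of 3 and was not called. The x-fold of 0.746 (0.508 to 1.08) in T1 did not pass the test (adjusted exact binomial p = 0.183). With the mitochondrial pairs kept in the totals, DBP in T3 turned to 0.973, and in T1 it was called lower at 0.560 (adjusted exact binomial p = 0.00305).

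As these x-folds depend on the totals, shares of counts between pairs of clock genes within a library were also taken, which do not. The shares still depend on which unigenes are counted and on the part of the gene that each unigene covers. PER1 made up 15.7% (95% Wilson interval 14.0 to 17.5) of the counts of PER1 and CRY2 in the control library, 70.2% (67.1 to 73.2) in T1, 90.5% (71.1 to 97.3) in T2 and 32.9% (28.6 to 37.5) in T3. All treated libraries lay above the control library, with intervals that did not overlap it. CRY1 made up 5.72% (4.64 to 7.03) of the counts of CRY1 and CRY2 in the control library, 36.4% (31.8 to 41.1) in T1 and 5.94% (3.79 to 9.19) in T3, so only T1 was apart, and T2 had 2 counts for each gene. PER1 made up 35.6% of the counts of PER1 and NR1D1 in the control library, 86.2% and 86.4% in T1 and T2, and 40.0% (35.0 to 45.2) in T3, where the interval overlapped that of the control library (32.2 to 39.2). PER2 made up 13.8% (9.72 to 19.2) of the counts of PER2 and NR1D2 in the control library, 80.5% (72.9 to 86.3) in T1 and 48.2% (35.7 to 61.0) in T3. This share leaves out the unigene c10932_g2, which matches NR1D2 only by nucleotide. It held 169, 170, 1 and 82 counts in the control and T1 to T3, and would lower the share of PER2. DBP made up 16.2% (13.4 to 19.5) of the counts of DBP and NR1D1 in the control library, 31.0% (24.0 to 39.0) in T1 and 23.9% (19.3 to 29.3) in T3.

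**Figure D3:**
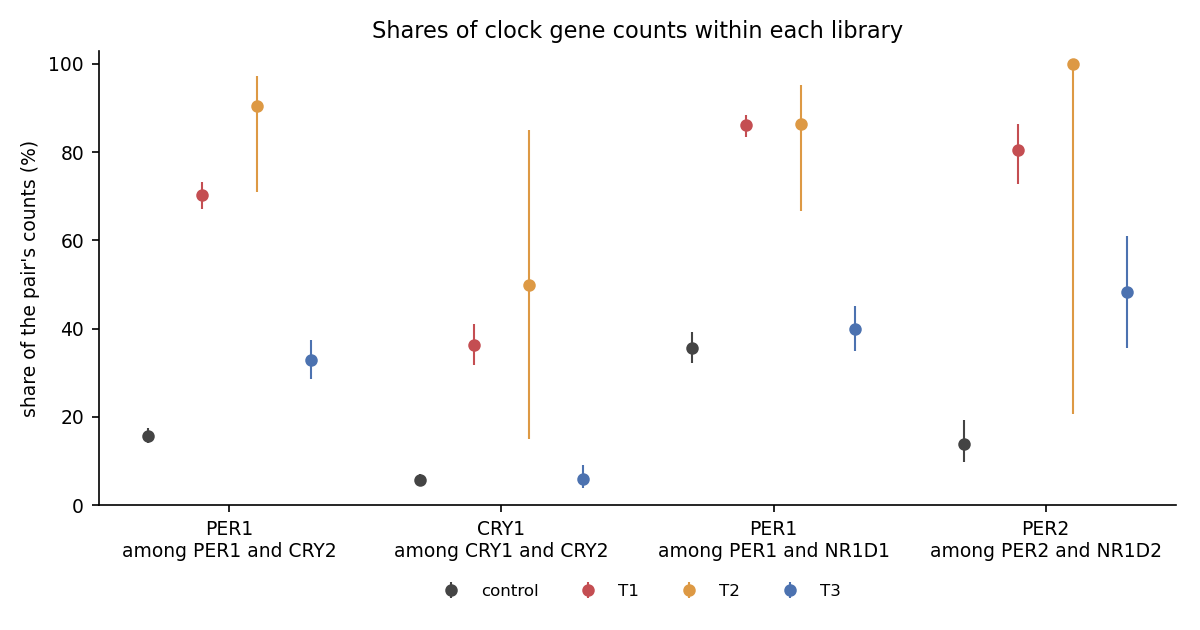
Share of counts, in percent, of the first gene of each pair within each of the 4 libraries, with 95% Wilson intervals. The share of PER1 against CRY2 was 15.7% in the control and 70.2%, 90.5% and 32.9% in T1 to T3, while the share of CRY1 against CRY2 was 5.94% in T3 and 5.72% in the control library.

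The arms of the loop were compared in the same way. The set of E-box-driven genes taken here was PER1, PER2, PER3, NR1D1, NR1D2 and DBP, and it leaves out CRY1 and CRY2, which the E-box also drives. It made up 92.6% (90.9 to 94.0) of its counts plus those of CLOCK and ARNTL in the control library, and 98.0% (96.9 to 98.7), 96.2% (81.1 to 99.3) and 97.5% (95.7 to 98.6) in T1, T2 and T3. T1 and T3 lay above the control library, and T2, with 26 counts, could not be told from it. Without PER1 the share was 90.3% in the control library, 93.9% in T1, 85.7% in T2 and 96.5% in T3. In mammals these arms peak at different hours of the day, and as the hour of sampling is not given, hour and treatment cannot be told apart here.

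T1, T2 and T3 differed among themselves as well, in comparisons that do not use the control library. These comparisons depend on the totals over named goat genes, and no other totals were run for them. Against the control library, PER1 in T2 turned from higher to lower when the mitochondrial pairs were kept, so the ratios to T2 are to be read with care. Between T1 and T3, CRY1 was called higher in T1, by a ratio of 5.56 (3.40 to 9.64, adjusted exact binomial p = 1.21e-15), where 4.21% of 9444 genes were. NR1D1 at 0.315 (0.246 to 0.403) and DBP at 0.451 (0.301 to 0.670) were called lower in T1, where 6.76% of genes were. PER1 at 2.95 (2.45 to 3.57), PER2 at 2.68 (1.74 to 4.25) and CRY2 at 0.614 (0.517 to 0.729) had small p-values but lay just inside the limits. Between T3 and T2, PER1 was lower in T3 at 0.365 (0.225 to 0.625), where 3.98% of 9321 genes were called, and CRY2 was higher at 7.07 (1.94 to 58.6), where 1.15% were. Between T1 and T2 no clock gene was called by the exact binomial test, and 2.19% and 4.44% of 9346 genes were called higher and lower.

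For genes with several unigenes, the unigenes did not always move together. NR1D1 is held by c5964_g1, which carries the start of the coding sequence, and c11828_g3, which carries its end. The first held 193 counts in the control and 13, 1 and 42 in T1, T2 and T3, and the second held 273, 85, 2 and 168. In T1 the x-fold was 0.103 (0.0537 to 0.180) for the start and 0.475 (0.368 to 0.608) for the end, and in T3 it was 0.491 (0.343 to 0.688) and 1.39 (1.14 to 1.69). The start made up 41.4% (37.0 to 45.9) of the NR1D1 counts in the control library, 13.3% (7.92 to 21.4) in T1 and 20.0% (15.2 to 25.9) in T3. A further unigene, c11945_g2, matches NR1D1 only by nucleotide and is not among the members. It held 55, 42, 1 and 32 counts, with x-folds of 1.16 (0.760 to 1.77) and 1.31 (0.821 to 2.07) in T1 and T3.

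NR1D2 showed the same split. Its member c10932_g1 holds the whole predicted coding sequence, and c10932_g2, from the same assembly group, is 1943 bases long and is matched to NR1D2 only by nucleotide. The latter held 169 counts in the control and 170, 1 and 82 in T1, T2 and T3, with x-folds of 1.53 (1.23 to 1.91) and 1.09 (0.830 to 1.43) in T1 and T3, where the coding unigene gave 0.227 and 0.374. The coding unigene made up 50.9% (45.6 to 56.1) of the counts of both in the control library, 13.3% (9.22 to 18.7) in T1 and 26.1% (18.9 to 35.0) in T3. Summed over both, NR1D2 had x-folds of 0.869 (0.725 to 1.04) and 0.728 (0.582 to 0.904) and was not called (adjusted exact binomial p = 0.181 and 0.00895).

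**Figure D4:**
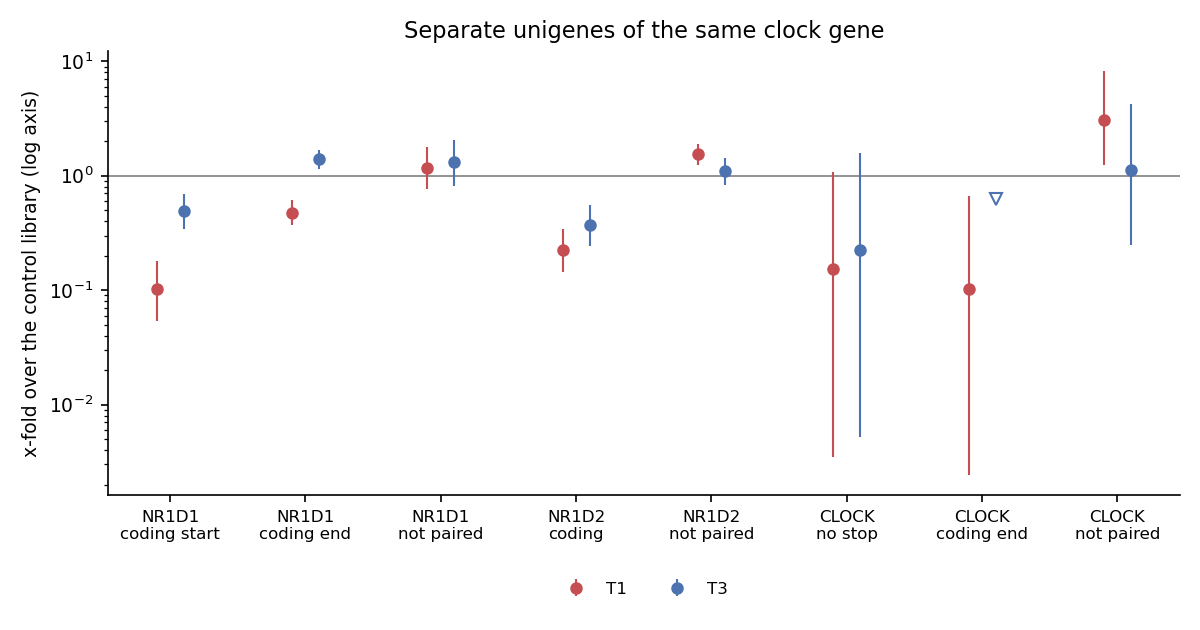
The x-fold of single unigenes of NR1D1, NR1D2 and CLOCK in T1 and T3 on a log axis, with 95% exact intervals and a triangle at the upper limit for 0 counts. The coding start of NR1D1 lay at 0.103 and 0.491, its coding end at 0.475 and 1.39, and the unigene of NR1D2 that is not paired at 1.53 and 1.09 against 0.227 and 0.374 for the coding unigene.

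A difference of this kind was seen across the whole assembly. For 164 goat genes with a unigene that ends in a stop codon and another without, and at least 50 control counts on each, the x-fold of the part with the stop codon was the higher in 158 genes in T1, 101 in T2 and 153 in T3. The median x-fold was 0.109 for the parts without a stop codon and 0.888 for those with it in T1, and 0.216 and 0.669 in T3. In T2 the medians were 0 and 0.428, and 34 genes went the other way. As the minimum in the control library favours parts that are high there, the genes were also taken, by a choice made after seeing the data, with at least 50 counts over the treated libraries on each part. Of these 55 genes, the part with the stop codon had the higher x-fold in 50 in T1, 39 in T2 and 47 in T3. The PER1 unigene c11996_g1 holds only the end of the coding sequence, with 789 coding bases and 599 bases after them, whereas the unigenes of ARNTL, CRY1, CRY2, NR1D2 and DBP hold a whole predicted coding sequence. The part of this coverage in the results on the clock genes was not tested. PER1, CRY1, CRY2, ARNTL, NR1D2 and DBP each have 1 paired unigene, which carries a stop codon, so counting only such unigenes left their counts as they were and tests nothing about them. Among the others, PER2 was still called higher in T1 at 5.58, where 5.51% of 8288 genes were, and NR1D1 was still called lower at 0.461, where 26.5% were, while CLOCK lost its calls. In T3 the lower calls were then CRY1, CRY2 and NR1D2, where 24.4% of 8282 genes were lower, and 1.97% were higher.

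Part of the assembled NR1D1 sequence is also found in that of THRA, a thyroid hormone receptor gene. The NR1D1 unigene c11828_g3 shared 269 bases, from position 908 to 1176, with the opposite strand of the THRA unigene c11828_g2. THRA held 1001 counts in the control and 255, 10 and 278 in T1, T2 and T3, with x-folds of 0.388, 0.454 and 0.627. As the library kit is not described as keeping the strand, reads in this stretch cannot be assigned to NR1D1 or THRA. The coding start of NR1D1 lies outside it.

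The treated libraries were then taken as 1 group and compared with the control library by edgeR's quasi-likelihood test, with the lone control library assumed to vary like the treated libraries. No clock gene passed an adjusted p of 0.05 in edgeR, with 9 tested and PER3 below the filter, while 6 (0.0706%) of 8494 genes were called higher and 53 (0.624%) lower. At an unadjusted p of 0.05 edgeR gave 4 of the 9 clock genes, against 1160 of all 8494 genes. DESeq2 gave 0 clock genes at either level, against 418 of 11195 genes at the unadjusted level. The edgeR log2 fold change was -1.88 (SE 0.729) for NR1D2, -1.76 (SE 0.711) for CRY2, -3.07 (SE 1.24) for CLOCK and 1.88 (SE 0.861) for PER2, with adjusted p of 0.220, 0.240, 0.240 and 0.317. The x-fold of NR1D2 and CRY2 was below 1 in 3 of 3 treated libraries and that of CLOCK in 2 of 3. The median of all genes was below 1 as well, at 0.737, 0.551 and 0.712 in T1, T2 and T3. In T2, NR1D2 rests on 0 counts and CRY2 on 2. The x-fold of PER2 was above 1 in 3 of 3, but it was called in T1 alone. It rests on 1 count in T2, where it turned to 0.0451 with the mitochondrial pairs kept in the totals. For PER1 the edgeR log2 fold change was 1.42 (SE 0.804, edgeR adjusted p = 0.447). A p that misses the threshold does not show that the levels were the same.

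Genes that act with the clock were counted from lists of known factors. Of 13 clock partners 7 were in the table. In T1, T2 and T3, 0 of them were called higher against backgrounds of 4.72%, 4.56% and 1.94%. Lower calls were 2, 1 and 2 against 28.2%, 5.52% and 24.3%. NFIL3, the repressor at D-box elements that opposes DBP, held 373, 612, 0 and 28 counts in the control and T1 to T3, with an x-fold of 2.50 (2.20 to 2.85) in T1, not called, and lower calls in T2 and T3, at 0.169 (0.111 to 0.249) in the latter. HLF, a relative of DBP, was called lower in T1 at 0.152 (0.0173 to 0.628) on 20 against 2 counts. The median x-fold of the list was 0.538 in T1 and 0.796 in T3.

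The next list holds kinases, phosphatases, ubiquitin ligases and cofactors that modify clock proteins. Of 35 genes 29 were in the table, and 16, 3 and 17 were called lower in T1, T2 and T3 against backgrounds of 28.2%, 5.52% and 24.3%, with median x-folds of 0.537, 0.591 and 0.521. The median in T2 was above that of all genes, 0.551, and SFPQ and SIRT1 stood at 2.66 and 2.53 in T1, not called. DDB1, a part of ubiquitin ligases, held 664, 119, 3 and 107 counts and was lower in all 3 treated libraries, with x-folds of 0.273, 0.206 and 0.364. USP7, a deubiquitinase that acts on CRY proteins, was lower at 0.489, 0.252 and 0.534, and USP9X was lower at 0.343 and 0.429 in T1 and T3 and held 0 counts in T2. CSNK1A1, a casein kinase, was lower at 0.360 and 0.324 in T1 and T3. The most abundant were SKP1, with x-folds of 1.27, 0.476 and 0.699, and PPP1CA, with 0.710, 0.798 and 0.896, and none of these was called. FBXW7, named after its values were seen, was the only higher call, in T2 at 4.60 (2.04 to 9.13), against a background of 4.56%.

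In the list of genes known to follow the clock in muscle, 20 of 22 were in the table. PDK4, the kinase that turns off pyruvate oxidation, held 11892, 1749, 20 and 298 counts and was lower in all 3 treated libraries, at 0.224, 0.0765 and 0.0565. FBXO32, an ubiquitin ligase of muscle wasting, held 1537, 163, 1 and 32 counts and was lower at 0.162, 0.0296 (0.000749 to 0.165) and 0.0470. TRIM63, the other main ligase of wasting, held 1357, 6629, 4 and 227 counts and went the other way in T1, at 7.45 (7.03 to 7.90), but was lower in T2 and T3 at 0.134 and 0.377. PFKM, the muscle phosphofructokinase, was lower at 0.498, 0.126 and 0.591, and TCAP, a Z-disc protein under the clock, was at 1.41 and 1.05 in T1 and T3 and lower at 0.213 in T2. LPL, the lipoprotein lipase gene, named after its values were seen, was higher in T1 and T2 at 4.61 and 7.14 (4.85 to 10.2). In all, 2, 1 and 0 genes were called higher against backgrounds of 4.72%, 4.56% and 1.94%, and 7, 6 and 11 lower against 28.2%, 5.52% and 24.3%, in T1, T2 and T3, with median x-folds of 0.731, 0.216 and 0.444.

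The list of genes that respond to cAMP or glucocorticoids, of which 15 of 18 were in the table, includes PER1. In T1, 8 genes were called higher against a background of 4.72%, and 2 lower against 28.2%, with a median x-fold of 3.61. In T2, 1 gene was called higher against 4.56% and 3 lower against 5.52%, with a median of 0.535. In T3, 2 genes were called higher against 1.94% and 4 lower against 24.3%, with a median of 1.14. NR4A1, an orphan nuclear receptor induced early by cAMP, held 284, 674, 7 and 518 counts and was called higher in T1 and T3, at 3.62 (3.15 to 4.17) and 4.12 (3.55 to 4.77). Other genes of the list were called lower. ZBTB16 was lower in all 3 treated libraries, at 0.409, 0.288 and 0.122, TSC22D3 was lower at 0.333 and 0.425 in T2 and T3, and FKBP5 was lower in T3 at 0.0595 (0.0439 to 0.0790). In T2, PER1 was the list's only higher call, while FOS, an early response gene, was lower at 0.0553 (0.00140 to 0.309) on 1 count. SGK1, a kinase gene of the list, stood at 2.80 (2.14 to 3.69) in T1 and was not called. JUNB, NR4A3, SIK1, CREM, ATF3 and DUSP1, named after their values were seen, were the other higher calls in T1, with x-folds from 4.79 for DUSP1 to 54.9 (9.24 to 2228) for NR4A3, which had 1 count in the control library.

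**Figure D5:**
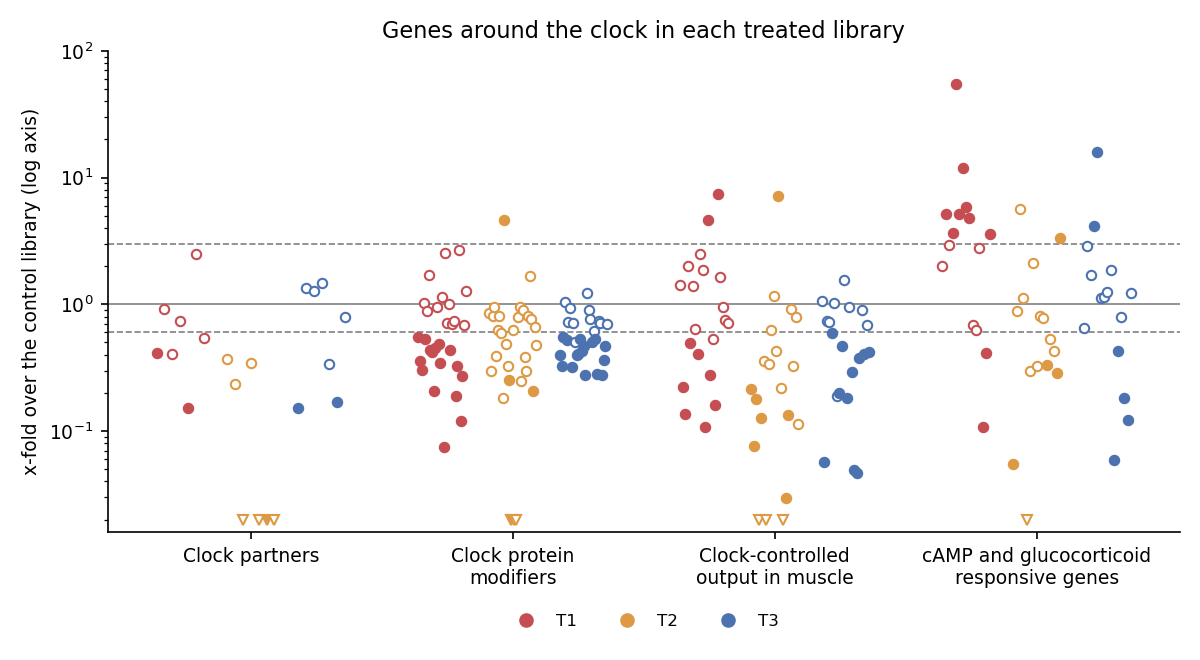
The x-fold over the control library of each gene of the 4 lists in each treated library, on a log axis, with filled markers for called genes, dashed lines at 3 and 0.6, and triangles near the bottom for genes with 0 counts in the treated library. In T1, 8 of the 15 cAMP and glucocorticoid responsive genes lay above the upper limit with a call, and 16 of the 29 clock protein modifiers lay below the lower limit with a call.

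The genes whose x-folds over the 3 treated libraries were closest to those of the 3 most abundant members were found among 3453 genes with at least 100 counts in all and 3 in every library. For CRY2 they were MFN2, PHKA1 and MYBPC1, with largest differences of 0.19, 0.50 and 0.53 on the log2 scale. MFN2, a mitochondrial fusion protein, had x-folds of 0.289, 0.0734 and 0.406. For PER1 they were PTBP1, PLXNB1 and SORBS3, with 0.24, 0.32 and 0.34, and for NR1D1 they were GOT2 and SDHA, enzymes of the mitochondrion, and PGM1, an enzyme of glycogen use, with 0.15, 0.24 and 0.31. The likeness rests on 3 values per gene, all taken against the same control library.

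Markers of other cell types also differed between the libraries. The 3 adipocyte markers in the table, ADIPOQ, PLIN1 and CIDEC, out of 5, summed to 14.8 CPM in the control and 111, 859 and 28.5 in T1, T2 and T3, with none at 0. The 4 of 6 fibroblast markers summed to 114, 168, 2220 and 270, with PDGFRA at 0 in the treated libraries, and the 5 endothelial markers to 309, 201, 837 and 398. The 4 of 5 myeloid markers summed to 2.14, 6.26, 0 and 2.22, with all 4 at 0 in T2. The 4 smooth muscle markers summed to 39190, 24831, 31881 and 55486 CPM, nearly all of it on ACTA2, whose reads may be shared with the near-identical muscle actin ACTA1, and no B cell marker was in the table. The highest sums for adipocytes and fibroblasts were thus in T2, which with T1 was a library in which PER1 was called higher. The fibroblast sum was higher in T3, where PER1 was not called, than in T1. The part of these cells in the levels of the clock genes was not tested.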

How the data were processed

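RNA-seq libraries from goat longissimus muscle, 1 control and 3 treated, were analysed. The authors sequenced on an Illumina HiSeq instrument and deposited unigenes assembled from the reads. Which assembler and counter were used is not given in the sources used here, while the submitters' processing notes name FastQC 0.10.1. The authors deposited, for each unigene and transcript, the expected count, TPM and FPKM. The deposited expected counts were all whole numbers, so rounding changed nothing. The deposited table that pairs unigenes with goat genes gives the percent identity of the protein match, and the deposited annotation gives lengths, sequences and predicted coding parts. The deposited tally per FPKM class repeats the FPKM values and was not used.

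Expected counts were summed per goat gene and divided by the library total over named goat genes. The plan named goat-paired counts as the totals. The 25 pairs without a gene name, which that total literally includes, were left out, as they name no gene. They took 23.8%, 42.8%, 97.9% and 55.2% of the goat-paired counts in the control and T1, T2 and T3. Genes with at least 10 counts over the 4 libraries, 9470 in all, were compared between pairs of libraries by a 2-sided exact binomial test, the smaller tail doubled, with Benjamini-Hochberg adjustment over all genes tested. Exact Clopper-Pearson and Wilson intervals are at 95% and cover counting error only. The treated libraries, with the control library, were compared by edgeR's quasi-likelihood test on the same totals without TMM. Nothing states that the treated libraries are separate samples of 1 day, so the spread between them may hold the day too. Both tests were run on simulated counts with 200 changed genes. At the spread that edgeR estimated from these data, edgeR recovered 2 of them when changed 4-fold and 53 when changed 8-fold. With counting error alone, the binomial test recovered 154, 45 and 148 of 200 changed 4-fold in T1, T2 and T3.

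The members and the gene lists were chosen with earlier results of these data known, and so no p is given over a list. All members are named with their values. From each list the 2 genes of highest mean level and up to 4 genes called the same way in most treated libraries are named, and for the 3 members of highest count the 3 genes with the most similar x-folds. Some genes that these rules or the marker lists hold are not reported here. Of the 11208 gene names, 10211 were found in RefSeq, build ARS1.2, with all 10 members, and no positions were taken from it. Members' sequences are those of the deposited unigenes, with positions counted from 1 at the 5′ end of the coding strand. NPAS2, a partner of ARNTL in the planned share of E-box-driven genes, was not in the table and stayed out of it. Software was R 4.3.3 with edgeR 4.0.16 and DESeq2 1.42.0, and Python 3.11.15 with scipy 1.17.1, numpy 2.4.6, matplotlib 3.10.9 and pandas 2.3.3. Alternatives were other totals, limits, filters, unigene choices, the transcript table, FPKM with a pseudocount of 0.1, TMM, DESeq2 and leaving out each treated library.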

Additional observations from a re-analysis of the deposited data

Results flagged for a closer look

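Unigenes that match a clock gene only by nucleotide are not part of the members, and 4 of them had a signal in a treated library above that in the control library by the 95% exact interval of the x-fold, whose lower bound was above 1. Others had x-folds above 1 with intervals that include 1. With 1 to 5 counts these intervals are wide. The NR1D2 unigene c10932_g2 had an x-fold of 1.53 (1.23 to 1.91) in T1, on 170 counts against 169 in the control library. The CLOCK unigene c29591_g1 had an x-fold of 3.05 (1.23 to 8.23) in T1, on 16 counts against 8. The ARNTL unigene c3656_g1 held 5 counts in T1 and 3 in T3, with 0 in the control library. The PER3 unigene c45662_g1 held 4 counts in T1, 1 in T2 and 4 in T3, with 0 in the control library. These values are from single libraries, and no group had enough libraries for a search for samples far from the others.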

How the results depend on the processing

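No paired analysis was possible because there was 1 control library for 3 treated libraries. The plan set levels against goat-paired counts. Read literally, these include the mitochondrial pairs, so the totals reported here depart from it. Totals were also taken with the mitochondrial pairs kept, a run added after seeing the data, or with all expected counts. The clock genes called were then 9 and 9 in T2 (2 as reported), and 6 and 6 in T3 (3 as reported), all lower. Of all genes tested, 89.1% and 90.6% were called lower in T2 under these totals, and 56.5% and 58.4% in T3. In T1 the 2 higher and 4 lower calls became 1 and 6 under both totals. Of all genes, 2.80% and 2.46% were then higher in T1, and 43.3% and 46.8% lower. With FPKM times length and the limits alone, 10 clock genes were lower in T2 and 7 in T3, where 98.8% and 72.9% of all genes were. In T2, median-ratio size factors left 1 call, CRY2, lower, where 8.85% of all genes were. PER1 in T2 reversed with the mitochondrial pairs, with all expected counts and with FPKM, to x-folds of 0.0930, 0.0856 and 0.0886, as the mitochondrial unigenes dominate that library. The other totals, limits, filters and unigene choices run for the counts of calls left them within 1.5 times. Median-ratio size factors moved the median x-fold of all genes from 0.737, 0.551 and 0.712 to 0.898, 0.428 and 0.918 in T1, T2 and T3, and TMM moved the median edgeR log2 fold change from -0.36 to -0.01. The cause of the other changes was not tested.

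The share of E-box-driven genes in the control library was 90.3% without PER1, 90.1% per kb of unigene and 89.0% with the unigenes matched only by nucleotide, and in T1 it was 93.9% without PER1 and 95.3% with those unigenes. These last and the counts with only unigenes that carry a stop codon were also chosen after seeing the data. By edgeR and DESeq2, 0 clock genes were called under every alternative, where leaving out 1 treated library gave the range 0 to 0. Without T2 all genes called by edgeR went from 6 higher and 53 lower to 19 and 175, without T1 to 15 and 9, without T3 to 8 and 5, with TMM to 12 and 26, with no filter to 51 and 152, with stop-codon unigenes to 0 and 3, and DESeq2 gave 2 and 0. Over these alternatives the adjusted p in edgeR or DESeq2 ran from 0.123 to 1.00 for NR1D2, from 0.164 to 1.00 for CRY2, from 0.0888 to 1.00 for CLOCK and from 0.149 to 1.00 for PER2. Of the values of single clock genes under an alternative, by x-fold, edgeR or DESeq2, 369 kept their call or stayed without one, 10 lost a call, 44 gained a call and 3 called values reversed. Values without a call could change side, as PER3 in T2 did, from 6.50 to 0.181 with the mitochondrial pairs and to 0.166 with all expected counts. Depth limits T2, where 3 counts are 22.4 CPM, above the control level of 6 of the 10 genes.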

Other observations

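CRY1 was deposited as 3 transcripts of 1 unigene. The longest, of 2446 bases, held 52 counts in the control and 125, 2 and 8 in T1, T2 and T3. The transcript of 1929 bases held 18, 8, 0 and 6 counts and that of 1765 bases held 14, 15, 0 and 4. The higher level of CRY1 in T1 was thus carried by the counts given to the longest transcript.

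Over 18 unigenes that match 7 of the clock genes only by nucleotide, the control library held 305 counts and T1, T2 and T3 held 256, 4 and 132. For comparison, the members held 2575, 1313, 30 and 789 counts.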
